A study of Mus musculus with 3 samples.

Results

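The miR-148/152 family was described in mouse TAG 1 ES cells from every listed mature arm of miR-148a, miR-148b and miR-152. There were 5 such arms among 693 listed miRNAs, namely the 3p arms of all 3 hairpins and the 5p arms of miR-148a and miR-148b. The arms and the fixed lists of other miRNAs below were chosen by name, but with earlier results of these data known. The sixth arm, miR-152-5p, was not analysed here. Short RNA was sequenced from 1 library in each of 3 conditions, and 2 sequencing runs were pooled per library. TAG 1 is an ES cell line that carries a doxycycline-inducible, constitutively active Alk4* receptor, which all 3 conditions share. Control cells were left untreated and grew with serum and LIF. SB cells spent 16 hrs in 30 µM of the inhibitor that the labels spell SB-431541 and the methods SB-431542, which blocks phosphorylation of Smad2/3 by the receptors. Dox cells had the same 16 hrs of SB and after it 12 hrs of 1 µg/µl doxycycline, which induces Alk4*. Both treated cultures were in serum replacement, again with LIF. The medium and the treatment therefore cannot be told apart in a comparison with Control. TAG 1 is a single engineered line, and nothing in these data measures the variation between its cultures.

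miRNAs are processed from a hairpin into a duplex, of which one arm is usually loaded into the silencing complex and the other is mostly degraded. The bases that follow the first one, called the seed, pair with target mRNAs, so that miRNAs with one seed are read as a family with shared potential targets. The miR-148/152 family is best known for Dnmt1, the maintenance DNA methyltransferase, among its targets. Activin and Nodal signal through Alk4 and Smad2/3 in ES cells, and the study asked which miRNAs fall when p-Smad2/3 is repressed and rise when it is induced.

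The mature sequences show why the 3p arms are one family and how their reads can be told apart. They were taken from RefSeq (GRCm38.p6), 5′ to 3′, with the seed (bases 2 to 8) in capitals.
miR-148a-3p: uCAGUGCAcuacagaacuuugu
miR-148b-3p: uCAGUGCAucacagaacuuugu
miR-152-3p: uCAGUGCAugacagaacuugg
miR-148a-5p: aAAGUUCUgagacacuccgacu
miR-148b-5p: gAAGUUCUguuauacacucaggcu

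All 3 of the 3p arms have the seed CAGUGCA, and no other mature miRNA among the 1679 names of the RefSeq table has it. Counted from the 5′ end, miR-148a-3p and miR-148b-3p differ by C9U and U10C, and 20 of their 22 bases are identical. miR-152-3p is 1 base shorter, at 21 bases, and differs from miR-148a-3p by C9U, U10G and U20G. Against miR-148b-3p it differs by C10G and U20G. The authors kept reads longer than 16 bases and allowed perfect matches only. No stretch of 17 or more bases of any of the 5 arms occurs in another mature miRNA or in the hairpin of another gene of the table. A read that lies within one of these arms is therefore not shared with its relatives. The authors also assigned reads that matched a hairpin and overlapped an arm in part, and such reads were not checked. The 5p arms of miR-148a and miR-148b have the seed AAGUUCU and so belong to another target group than the 3p arms.

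The 3 hairpins lie on different chromosomes (GRCm38). Mir148a lies on the − strand at chr6:51269812-51269910, outside any annotated gene, and the nearest protein-coding gene, Nfe2l3, is 162760 bases away. Mir148b lies on the + strand at chr15:103285125-103285221, in an intron of Copz1 and on the same strand. Mir152 lies on the + strand at chr11:96850393-96850465, in an intron of Copz2, again on the strand of the host gene. Copz1 and Copz2 encode alternative zeta subunits of the COPI vesicle coat, so that miR-148b and miR-152 sit within paralogous genes. No annotated exon of the 4 Copz1 or the 3 Copz2 transcripts that span the hairpins overlaps them. The host mRNAs were not measured in these libraries.

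Levels are given in rpm, which the authors obtained as reads per 1000000 of a total per library. Every value was a whole number of reads to within 0.001 reads, and 1 read was worth between 0.0881 and 0.101 rpm. Each interval in the text is an exact one at the 95% level, from the Poisson distribution where it belongs to a level and from Clopper-Pearson limits where it belongs to a share or a ratio. Counting error is all that it covers, since the reads carry no molecular identifiers and no condition had a second library. No condition can therefore be tested, and no p-value is given. The SB library stood apart in one respect. miRNAs known from fibroblasts, which serve as feeder cells for ES cells, were higher there, and 15 of a list of 16 met the criteria below for a rise over Control, beside 15.3% of all listed miRNAs. The summed level of that list was 3919 rpm in Control, 8150.3 rpm in SB and 4466 rpm in Dox. Its 5 defining members summed to 633, 2133 and 419.8 rpm, mostly from miR-199a-3p, and miR-214-3p had 1 read in Dox. For Dox over SB 14 of the 16 were called lower and 0 higher, beside 17.9% and 41.7% of all listed miRNAs. For Dox over Control 7 were called lower and 2 higher, beside 19.8% and 30.6%. A list of 13 ES cell miRNAs summed to 74973, 59714 and 85054 rpm, but its members did not all follow that sum. For SB over Control 2 of the 13 were called lower and 4 higher, with a median log2 ratio of 0.14, beside 30.2% lower, 15.3% higher and a median of −0.19 over all listed miRNAs. For Dox over SB 7 were called lower and 5 higher, with a median of −0.33, beside 17.9% lower, 41.7% higher and a median of 0.38 over all. miR-290-5p, which the study lists as responsive to p-Smad2/3, had 35638, 18094 and 37406 rpm and weighs heavily in the sum of the list. It was 1 of the 2 called lower in SB. miR-292-3p, 1 of the 4 called higher in SB, had 4387, 6146 and 2740 rpm. The part of such other cells in the family's values was not tested.

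miR-152-3p was the most abundant arm of the family in each library. It had 502 rpm in Control (489 to 516), 427 rpm in SB (415 to 439) and 379 rpm in Dox (367 to 391), with 3752 to 5501 reads behind each value. In rpm it was highest in Control and lowest in Dox, and the 3 counting intervals did not overlap, but as a share of the reads on listed miRNAs it was 0.177% in both Control and SB and 0.114% in Dox. miR-148a-3p had 186 rpm in Control (178 to 195), 189 rpm in SB (181 to 197) and 252 rpm in Dox (242 to 262). In rpm Control and SB could not be told apart by counting and Dox lay above both, whereas the shares of the reads on listed miRNAs were 0.0659%, 0.0782% and 0.0755%. miR-148b-3p had 70.8 rpm in Control (65.9 to 76.0), 73.8 rpm in SB (68.9 to 79.0) and 157 rpm in Dox (149 to 165). In rpm the first pair of libraries overlapped, and Dox was the highest library both in rpm and as a share of the reads on listed miRNAs (0.0250%, 0.0306% and 0.0470%).

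The 5p arms, which are the minor products of their hairpins, were far lower. miR-148b-5p had 7.76 rpm in Control (6.20 to 9.59), 5.72 rpm in SB (4.42 to 7.30) and 13.8 rpm in Dox (11.6 to 16.4), from 85, 65 and 137 reads. Its Dox value lay above the other libraries, like that of miR-148b-3p. miR-148a-5p had 1.55, 1.85 and 2.22 rpm, from 17, 21 and 22 reads, and its intervals overlapped throughout. The order of the 5 arms was the same in the 3 libraries (miR-152-3p, miR-148a-3p, miR-148b-3p, miR-148b-5p, miR-148a-5p), with no overlap of counting intervals between neighbours. Among the 693 listed miRNAs miR-152-3p held rank 75 in Control, 79 in SB and 90 in Dox. miR-148b-3p climbed from rank 171 in Control and 158 in SB to 129 in Dox, whereas miR-148a-3p stayed between 109 and 111.

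**Figure D1:**
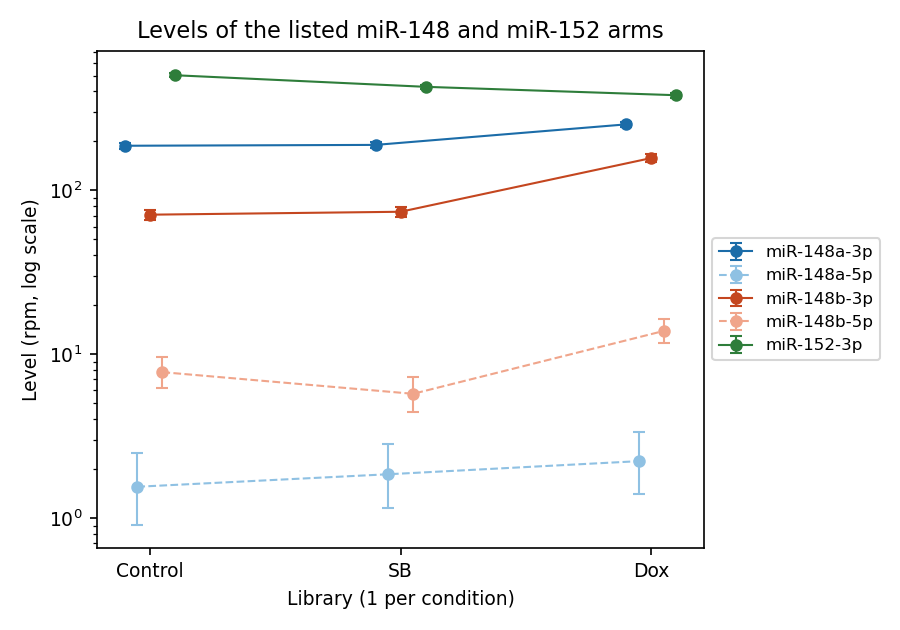
Level of each listed arm in rpm (log axis) in the Control, SB and Dox libraries, with 95% exact Poisson intervals for counting error; solid lines mark 3p arms and dashed lines 5p arms. miR-152-3p steps down from 502 to 379 rpm, while miR-148b-3p is level at 70.8 and 73.8 rpm and reaches 157 rpm in Dox.

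To ask which arms fell when p-Smad2/3 was repressed, SB was compared with Control. A miRNA was called by the criteria of the study, a log2 ratio of at least 0.32 in size together with a Z-score past the two-sided 95% limit of the normal distribution. The Z-score sets the reads of 2 libraries against each other and says nothing of the spread within a condition. None of the 5 arms was called in either direction, beside 30.2% of all listed miRNAs called lower and 15.3% called higher. miR-152-3p was 1.18-fold lower in SB, with a log2 ratio of −0.24 (−0.29 to −0.18), and the median log2 ratio of all listed miRNAs was −0.19. For miR-148a-3p the log2 ratio was 0.02 (−0.07 to 0.11) and for miR-148b-3p it was 0.06 (−0.08 to 0.20). miR-148b-5p was 1.36-fold lower in SB, but with 65 and 85 reads its log2 ratio of −0.44 had an interval from −0.93 to 0.04. The remaining arm, miR-148a-5p, gave 0.25 (−0.74 to 1.27), an interval that spans both directions at this depth.

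To ask which arms rose when p-Smad2/3 was induced, Dox was compared with SB, both in serum replacement. The Dox cells also had 12 hrs more of culture after SB, and doxycycline itself. Neither can be told apart from Alk4* induction in these libraries. Here 3 of the 5 arms were called higher, beside 41.7% of all listed miRNAs, and none was called lower, beside 17.9%. miR-148b-3p was 2.13-fold higher in Dox, a log2 ratio of 1.09 (0.97 to 1.21), and 78.2% of the listed miRNAs had a lower ratio. Its partner arm miR-148b-5p was 2.42-fold higher, with a log2 ratio of 1.27 (0.84 to 1.72). miR-148a-3p was 1.33-fold higher, a log2 ratio of 0.42 (0.33 to 0.50), which lies beside the median of 0.38 over all listed miRNAs, and its direction depended on the scaling as given below. miR-148a-5p had a log2 ratio of 0.27 (−0.67 to 1.20) and was not called. miR-152-3p went the other way, with a level 1.13-fold lower in Dox and a log2 ratio of −0.17 (−0.23 to −0.11), short of the fold threshold. Its ratio was 0.55 below the median of all listed miRNAs on the log2 scale. No arm met the activation profile of the study, lower in SB and then higher in Dox, which 20.9% of the listed miRNAs met. No arm met the opposite profile either, beside 9.67% of those listed. These profiles share the SB library between their 2 ratios.

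**Figure D2:**
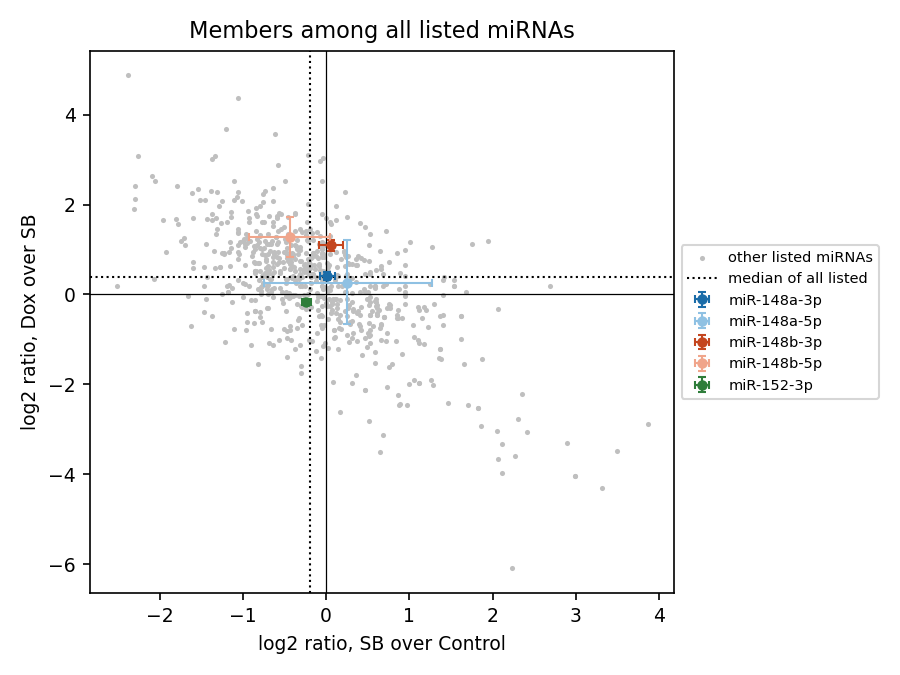
Log2 ratio of SB over Control (x axis) against log2 ratio of Dox over SB (y axis) for the listed miRNAs (grey) and the 5 arms (colours, with 95% exact intervals for counting error); dotted lines mark the medians over all listed miRNAs, −0.19 and 0.38. The arms of miR-148b lie above the horizontal median line and miR-152-3p lies below it, at −0.17.

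Dox was also set beside Control, a comparison in which the medium differed as well. miR-148b-3p was 2.22-fold higher in Dox, with a log2 ratio of 1.15 (1.02 to 1.27), and miR-148b-5p was 1.78-fold higher, with 0.84 (0.43 to 1.24). miR-148a-3p was 1.35-fold higher, a log2 ratio of 0.43 (0.35 to 0.52). These 3 of the 5 arms were called higher, beside 30.6% of the listed miRNAs, and miR-148a-3p was called in rpm but under none of the 4 other scalings. miR-152-3p was the arm called lower, 1.32-fold below Control with a log2 ratio of −0.41 (−0.47 to −0.35), beside 19.8% called lower over all. In rpm the step from Control to SB and that from SB to Dox were each under the fold threshold for miR-152-3p. Under the 4 other scalings described below, the step from SB to Dox alone was called lower.

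A share within a library does not depend on how libraries are scaled to each other by a factor. miR-152-3p made up 66.1% of the reads on the 3p arms in Control (65.1 to 67.1), 61.9% in SB (60.8 to 63.0) and 48.1% in Dox (47.0 to 49.2). miR-148b-3p made up 9.33% (8.71 to 9.97), 10.7% (10.0 to 11.4) and 19.9% (19.0 to 20.8). miR-148a-3p took the rest, with 24.6% (23.6 to 25.5), 27.4% (26.4 to 28.4) and 32.0% (30.9 to 33.0). Thus miR-152-3p lost share in both steps, with the larger loss between SB and Dox, and it remained the leading arm of the family. There were 7.09 reads of miR-152-3p for each read of miR-148b-3p in Control (6.57 to 7.65), 5.78 in SB (5.37 to 6.23) and 2.42 in Dox (2.28 to 2.56). Between SB and Dox the log2 ratio of miR-148b-3p exceeded that of miR-152-3p by 1.26 (1.12 to 1.40), and that of miR-148a-3p exceeded it by 0.59 (0.48 to 0.69). The corresponding differences between Control and SB were 0.29 (0.14 to 0.45) and 0.25 (0.15 to 0.36). miR-148b-3p and miR-148a-3p differed from each other by 0.67 (0.52 to 0.82) between SB and Dox, but by 0.04 (−0.13 to 0.21) between Control and SB. These intervals again hold counting error alone, and whether such a shift recurs between cultures was not tested.

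**Figure D3:**
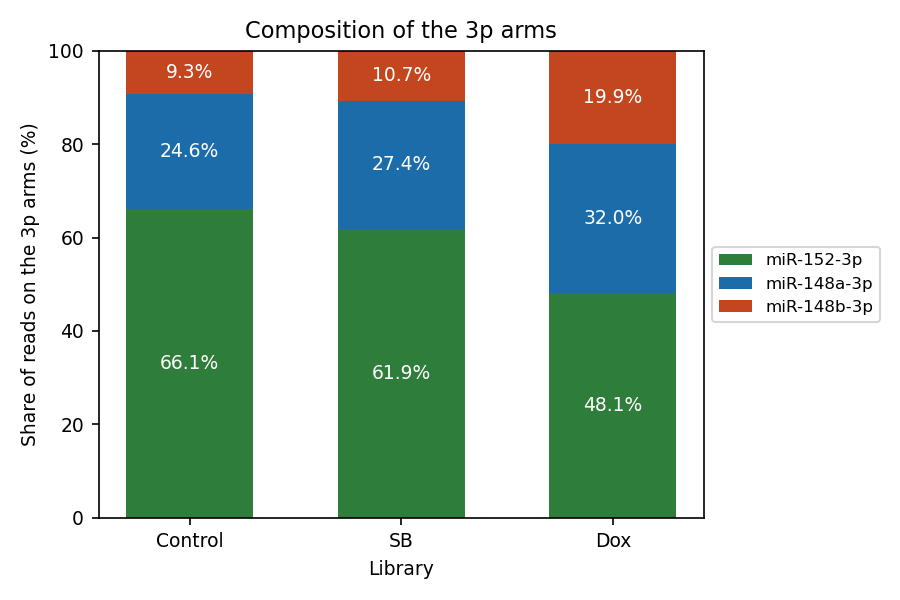
Share of the reads on the 3p arms (y axis, percent) that each 3p arm held in the Control, SB and Dox libraries. The share of miR-152-3p goes from 66.1% to 48.1% and that of miR-148b-3p from 9.3% to 19.9%.

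The reads with the CAGUGCA seed were also taken as a pool. The 3p arms summed to 759 rpm in Control (743 to 776), 689 rpm in SB (674 to 705) and 788 rpm in Dox (771 to 806). The log2 ratio of the sum was −0.14 (−0.18 to −0.10) for SB over Control, 0.19 (0.15 to 0.24) for Dox over SB and 0.05 (0.01 to 0.10) for Dox over Control, none past the fold threshold. As a share of the reads on listed miRNAs the sum was 0.268% in Control, 0.286% in SB and 0.236% in Dox, so that the direction of these small differences turned with the scaling.

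Because both arms of a hairpin come from one transcript, the arm shares show whether they moved together. The 5p arm held 9.87% of the reads of the miR-148b hairpin in Control (7.96 to 12.1), 7.20% in SB (5.60 to 9.08) and 8.11% in Dox (6.85 to 9.51), and these intervals overlapped. Between SB and Dox the log2 ratio of miR-148b-5p exceeded that of miR-148b-3p by 0.19 (−0.27 to 0.65). In the miR-148a hairpin the 5p arm held 0.825% (0.481 to 1.32), 0.970% (0.602 to 1.48) and 0.875% (0.549 to 1.32). The 3p arm thus dominated both hairpins in every library, more so for miR-148a. Of 130 hairpins with both arms listed, arms of 1 hairpin each and at least 100 reads in every library, 12 had a lower 5p share than miR-148a in Control and 35 had a lower one than miR-148b. The median 5p share of those hairpins was 57.8% in Control.

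The libraries differed in the share of reads that fell on listed miRNAs, out of the total that the rpm values imply, which was 28.3% in Control, 24.1% in SB and 33.4% in Dox. The median log2 ratio of all listed miRNAs for Dox over SB was 0.38 in rpm, but between −0.09 and 0.06 under 4 other scalings of the libraries. Over these 5 scalings the log2 ratio of miR-148b-3p for Dox over SB ran from 0.62 to 1.09 and that of miR-148b-5p from 0.81 to 1.27, and both arms were called higher in each. Relative to the median of all listed miRNAs, miR-148b-3p stood 0.69 to 0.71 above it. Such a distance is the same under every scaling by a factor per library, so only quantile normalization could change it. miR-148a-3p was called higher in rpm alone, and its log2 ratio fell to between −0.05 and 0.04 under the others. miR-152-3p ran from −0.64 to −0.17 and was called lower under the 4 other scalings, and it stood 0.43 to 0.55 below the median. For SB over Control no arm was called under any of the 5, but the log2 ratios moved from −0.24 in rpm to as near 0 as −0.0040 for miR-152-3p, from 0.02 to as high as 0.25 for miR-148a-3p and from 0.06 to as high as 0.29 for miR-148b-3p. For Dox over Control the arms of miR-148b were called higher and miR-152-3p lower under all 5, whereas miR-148a-3p was called in rpm alone. The shares of all listed miRNAs called are given for rpm alone, so the calls under the other scalings have no background beside them.

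**Figure D4:**
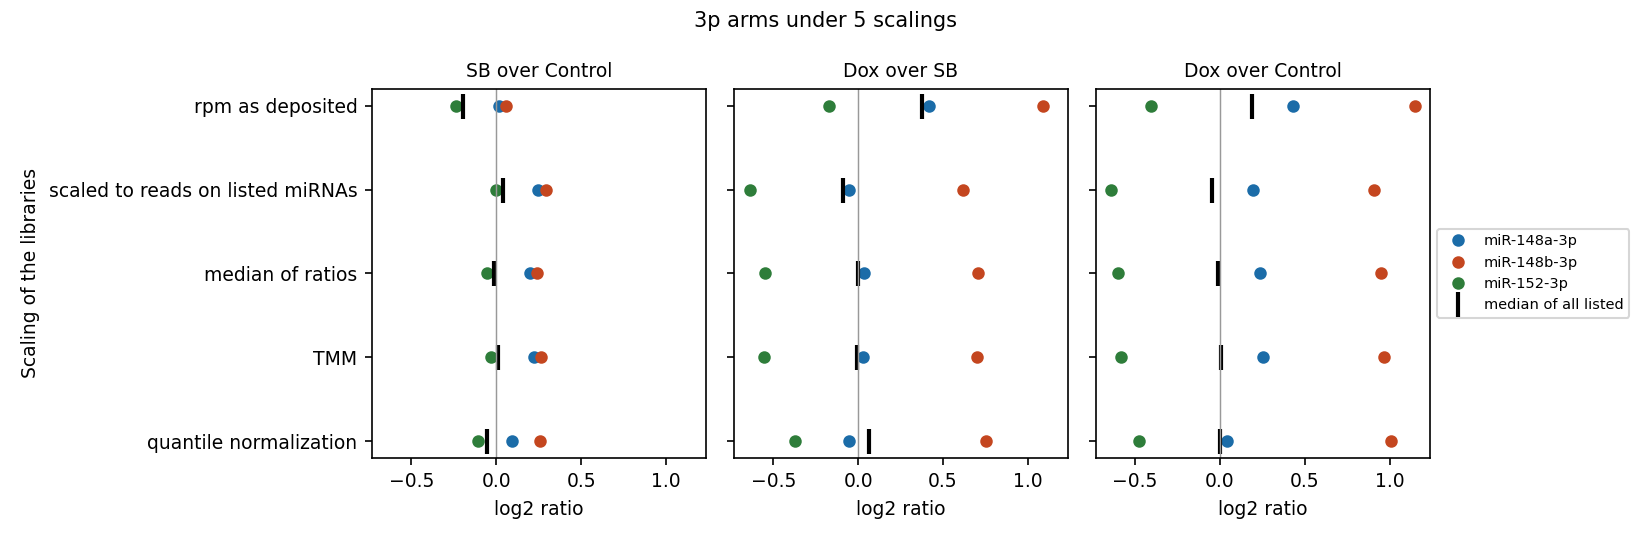
Log2 ratio (x axis) of the 3p arms in the 3 comparisons under 5 scalings of the libraries (rows), with the median over all listed miRNAs as a black bar. For Dox over SB miR-148b-3p stays between 0.62 and 1.09, miR-152-3p stays between −0.64 and −0.17, and miR-148a-3p lies near 0 in the rows other than rpm as deposited.

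A pair of related groups gives context. The miR-29 family is known for Dnmt3a and Dnmt3b, the de novo DNA methyltransferases, among its targets. Its 3 listed members met the criteria for a rise in SB over Control and for a fall in Dox over SB, with median log2 ratios of 1.36 and −1.41, beside 9.67% of all listed miRNAs that met both. miR-29a-3p, the most abundant, had 1251 rpm in Control, 3212 rpm in SB and 1206 rpm in Dox. None of the 3 was called between Dox and Control, beside 19.8% of all listed miRNAs called lower and 30.6% called higher. No arm of the miR-148/152 family had that course, and the fibroblast miRNAs above were highest in SB as well.

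The miR-130/301 family carries the AGUGCA of the miR-148/152 seed shifted by 1 base, at bases 2 to 7 in place of 3 to 8, so that the 2 families have different but overlapping seeds. The shared bases are in capitals.
miR-152-3p: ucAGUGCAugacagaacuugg
miR-130a-3p: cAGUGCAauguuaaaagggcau
miR-130b-3p: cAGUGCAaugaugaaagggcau

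All 4 members of the miR-130/301 list were called lower in SB than in Control, with a median log2 ratio of −0.75, beside 30.2% of all listed miRNAs, while none of the miR-148/152 arms was. For Dox over SB 2 were called higher and 1 lower, with a median of 0.17, near the shares of 41.7% and 17.9% over all listed miRNAs. miR-130a-3p, the most abundant, had 1402 rpm in Control, 1025 rpm in SB and 1707 rpm in Dox. miR-130b-3p had 570.02, 326 and 408 rpm. The remaining members, miR-301a-3p and miR-301b-3p, had at most 20.6 rpm in any library. Beyond that list, miR-291b-3p and miR-350-5p hold AGUGCA at bases 3 to 8, as the miR-148/152 family does, behind other first bases, with 28 to 40 reads per library.

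The miRNAs most like each 3p arm were taken by the distance between their pairs of log2 ratios (SB over Control and Dox over SB), over 3 libraries and among 291 miRNAs with at least 100 reads in every library. Nearest to miR-148a-3p was miR-411-5p, at a distance of 0.03 on the log2 scale, with 256, 264 and 354 rpm in Control, SB and Dox. miR-1968-5p and miR-378-3p followed, at 0.05 and 0.08. miR-26b-5p lay nearest to miR-148b-3p, at 0.06, with 466, 467 and 1002 rpm, and miR-720 and miR-700-3p followed at 0.10 and 0.13. For miR-152-3p they were miR-532-3p at 0.05, with 21.9, 19.0 and 16.5 rpm, then miR-196a-5p and miR-411-3p, each at 0.12. By the same measure the family's own 3p arms lay at 0.64 between miR-148a-3p and miR-152-3p, 0.67 between miR-148a-3p and miR-148b-3p and 1.29 between miR-148b-3p and miR-152-3p. The neighbours were the closest among those 291 miRNAs, whereas the family pairs were fixed by name. The distances of neighbours and of family pairs are therefore not comparable, and no distance for other pairs is given.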

How the data were processed

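Short RNA of TAG 1 ES cells was sequenced by the authors on the Illumina platform, with 1 library each for Control, SB and Dox. According to the methods, adaptors were trimmed with the FASTX clipper, reads longer than 16 bases were aligned with Bowtie 0.12.7 to miRBase without mismatches, and a miRNA needed 10 reads summed over Control, SB and Dox to be kept. The deposited values are rpm, reads scaled by the authors to a total per library, and they hold no replicate. Whole reads were recovered here as multiples of 1 step per library (100% of 2079 values), which gave totals of 10955686, 11354692 and 9895513 reads and 3102292, 2739358 and 3302828 reads on listed miRNAs. These totals differ from the total reads per sample that the study states, and which reads they count is not given in the sources used here. No test between conditions was run, since it needs replicates, and the Z-score used for calls compares the reads of 2 libraries. The rpm values were not corrected for length, and the arms compared are of similar length.

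Ratios used no pseudocount, and calls followed the fold and Z-score criteria of the study over all 693 miRNAs. Differences between 2 log2 ratios have exact conditional intervals of the odds ratio. Intervals and calls were tested on simulated reads with Poisson counting error alone, which the intervals assume, so variation between libraries was not covered. Of 100 simulated rises of 2-fold 82 to 87 were called, and of 100 such falls 72 to 73. Between 9 and 13 unchanged miRNAs were called as well. The 4 other scalings were reads on listed miRNAs, median of ratios, TMM (edgeR 4.0.16) and quantile normalization. Sequences came from RefSeq and locations from GENCODE on GRCm38, matched by name. The files give no coordinates. Named miRNAs were the family's listed arms, the 3 nearest patterns to each 3p arm, miRNAs with the shifted seed letters and the fixed lists. The members and lists were chosen with earlier results of these data known. Python 3.11.15, numpy 2.4.6, pandas 2.3.3 and scipy 1.17.1 were used.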

Additional observations from a re-analysis of the deposited data

How the results depend on the processing

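The log2 ratio of the summed 3p arms moved with the scaling, as did those of the single arms. For SB over Control it was 0.091 with the libraries scaled to reads on listed miRNAs, 0.042 with the median of ratios, 0.066 with TMM and −0.017 with quantile normalization. For Dox over SB it was −0.28, −0.19, −0.19 and −0.11 in the same order, and for Dox over Control it was −0.18, −0.14, −0.13 and −0.13. Under each of these 4 scalings 1 arm, miR-152-3p, was called lower for Dox over SB. The share of all listed miRNAs called lower is given for rpm alone, so this count has no background beside it. miR-148a-3p, called higher for Dox over SB in rpm, had a log2 ratio of −0.052 with scaling to listed miRNAs and −0.052 with quantile normalization. For Dox over Control a fold threshold of 1.5 or of 2 left 0 arms called lower, and a threshold of 2 left 1 called higher. Shares of all listed miRNAs at these thresholds are not given, so whether the family differs from them cannot be told. Quantile normalization moved the shares of miR-148a-3p to 26.3% in Control and 29.5% in Dox and those of miR-152-3p to 64.8% and 50.9%. With both arms of each hairpin summed, miR-148b held 10.2% in Control and 21.2% in Dox. These shares kept their order over the libraries, and the arm shares moved by less than their counting intervals. A pseudocount of 1 rpm and a minimum of 100 reads changed no count of calls by over 1.5 times.

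No paired analysis was possible because each condition had 1 library. For the same reason no library was left out in turn. The comparison of the spread within other seed families is void and not given, because 516 of the 693 listed miRNAs (74.5%) had a sequence by name. Reads limit the 5p arms most, with 17 to 137 per library.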
